A study of Mus musculus with 8 samples.

Results

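The 10 genes that lengthen, bind or shelter the poly(A) tail of messenger RNA were followed over 4 stages of the mouse testis. They were taken by symbol from the table of expression values, and all 10 of the 10 symbols were found among its 23983 genes: the poly(A) polymerases Papola and Papolb, the cytoplasmic poly(A) binding proteins Pabpc1, Pabpc2 and Pabpc4, their partners Paip1, Paip2 and Paip2b, and the Y-box proteins Ybx1 and Ybx2. The levels of all 10 averaged 1 FPKM or more over the 4 libraries, the limit used below for counting genes. FPKM stands for fragments per kilobase of transcript and 1000000 mapped fragments. A level is thus given per length of transcript and may be compared between genes of the same library. Comparisons between stages also depend on the scaling between libraries, which is not given in the sources used here.

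The study collected total RNA from a piece of testis of wild-type C57BL/6J mice at d12, d16 and d24 post partum and in adulthood. Each stage was sequenced as 1 library, and the labels give no further age for the adult stage and do not say whether animals were pooled. All 4 groups carry the same wild-type genotype and no treatment, and differ in age alone as far as the labels tell. The 4 H3K27Ac samples of the same stages were not analysed here. With 1 library a stage, no spread between animals is known and no p-value can be given. Intervals below are 95% Poisson intervals on the fragments, or 95% Clopper-Pearson intervals for ratios, and they cover counting error only. They are exact for Papolb, Pabpc1, Pabpc2 and Ybx1, whose fragments could be recovered from the FPKM values as whole numbers. For the other 6 genes and the paralog Ybx3 the fragments were estimated, so their intervals and those of ratios with them are approximate.

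Male germ cells stop transcribing as the spermatid nucleus condenses, and many of the messages needed afterwards are made earlier and held back from the ribosome. Y-box proteins coat and hold such messages, poly(A) polymerases in the nucleus and cytoplasm set the length of the tail, and cytoplasmic poly(A) binding proteins join the tail to the translation machinery at the cap. The Paip proteins act on that joint: Paip1 favours translation, while Paip2 and Paip2b draw the binding protein away from the tail. Several of these genes exist as a form used in all tissues and an intronless or germ cell form.

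The paralogs had first to be told apart by sequence, since each level rests on read pairs of 50 bases an end. Papola and Papolb were 85.2% identical over 1926 aligned coding bases. The stretch where they were closest, with 88 of 90 identical bases, is shown first, and the stretch where they were most different, with 61 of 90, follows it. Capitals mark the bases that differ between the pair, and positions count from the first base of the start codon (RefSeq transcripts, GRCm38.p6).
Papola coding bases 466 to 555: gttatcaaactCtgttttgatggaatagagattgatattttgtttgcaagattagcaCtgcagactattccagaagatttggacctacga
Papolb coding bases 469 to 558: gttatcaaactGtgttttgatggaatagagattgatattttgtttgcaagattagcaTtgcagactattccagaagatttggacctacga
Papola coding bases 1717 to 1806: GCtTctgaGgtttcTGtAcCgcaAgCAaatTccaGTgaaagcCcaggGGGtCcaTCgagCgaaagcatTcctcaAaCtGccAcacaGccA
Papolb coding bases 1714 to 1803: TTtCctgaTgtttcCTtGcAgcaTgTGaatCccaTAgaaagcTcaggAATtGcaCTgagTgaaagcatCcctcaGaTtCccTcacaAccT

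Only 16 of the 2288 stretches of 50 bases in the Papolb transcript, or 0.699%, occurred elsewhere in the genome, all of them in Papola. Pabpc1 was 83.2% identical to Pabpc2 and 83.4% identical to Pabpc6, a further intronless paralog, over 1884 and 1896 aligned coding bases. Even so, no stretch of 50 bases of Pabpc2 (0 of 2537) or of Pabpc6 (0 of 3159) occurred at another place in the genome. Ybx1 and Ybx2 were 72.8% identical over 863 aligned coding bases. Their closest stretch, with 77 of 90 identical bases, is given here with the differences, again in capitals, spread through it.
Ybx1 coding bases 169 to 258: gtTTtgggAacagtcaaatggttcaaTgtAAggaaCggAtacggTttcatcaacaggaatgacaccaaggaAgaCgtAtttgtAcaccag
Ybx2 coding bases 283 to 372: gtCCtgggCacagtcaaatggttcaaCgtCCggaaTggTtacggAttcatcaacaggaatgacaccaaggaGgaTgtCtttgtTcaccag

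Few stretches of Papolb and none of Pabpc2 were thus shared, and those of Pabpc4 were shared most. Of the stretches of the Pabpc4 transcript, 73.5% occurred elsewhere, and 68.9% occurred in the transcribed pseudogene Gm5088. For Pabpc1 the share was 32.0%, at 8 places that include the body of Luc7l and the pseudogene Gm8276. For Ybx1 it was 32.5%, at 1228 places that include the pseudogenes Gm11560 and Ybx1-ps2. It was 14.4% for Paip2b, 10.4% for Ybx2, 1.39% for Papola and 0% for Paip1 and Paip2. The authors kept 1 alignment a read pair, so that fragments of Pabpc1, Pabpc4 and Ybx1 can have been assigned to such copies or received from them.

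Among the poly(A) polymerases, Papolb rose from d12 to adult testis while Papola stayed within 1 narrow band. Papolb encodes the testis polymerase that extends tails in the cytoplasm, and Papola the canonical nuclear one. The level of Papolb was 2.12 FPKM at d12 (interval 1.62 to 2.72, from 62 fragments), 16.8 at d16, 193.4 at d24, then 308.3 in the adult. No neighbouring intervals overlapped, and each stage lay above the one before it. The rise was 7.95-fold from d12 to d16 (6.10 to 10.5) and 11.5-fold from d16 to d24 (10.5 to 12.6), and the further step to adult testis was 1.59-fold, under the limit of 2-fold. In bulk tissue, here and for all genes that follow, a change in the number of cells of a type and a change in RNA a cell cannot be told apart.

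Papola was at 40.0 FPKM at d12, 37.1 at d16, 36.9 at d24, then 40.1 in the adult. The adult level was 1.00 times the d12 level (0.939 to 1.07), although the log2 change was −1.21 with the libraries rescaled to the same FPKM sum. The level of Papolb was therefore 0.0529 times that of Papola at d12 (0.0404 to 0.0681), 0.454 times at d16, 5.24 times at d24, then 7.68 times in the adult (7.27 to 8.12). Such a ratio within a library does not depend on how the libraries were scaled to each other. Papolb passed Papola between d16 and d24. With Papolg, a further nuclear polymerase at 20.5, 21.1, 15.6 and 14.4 FPKM, Papolb made up 3.38% of the summed FPKM of the 3 polymerases at d12, 22.4% at d16, 78.7% at d24, then 85.0% in the adult.

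**Figure D1:**
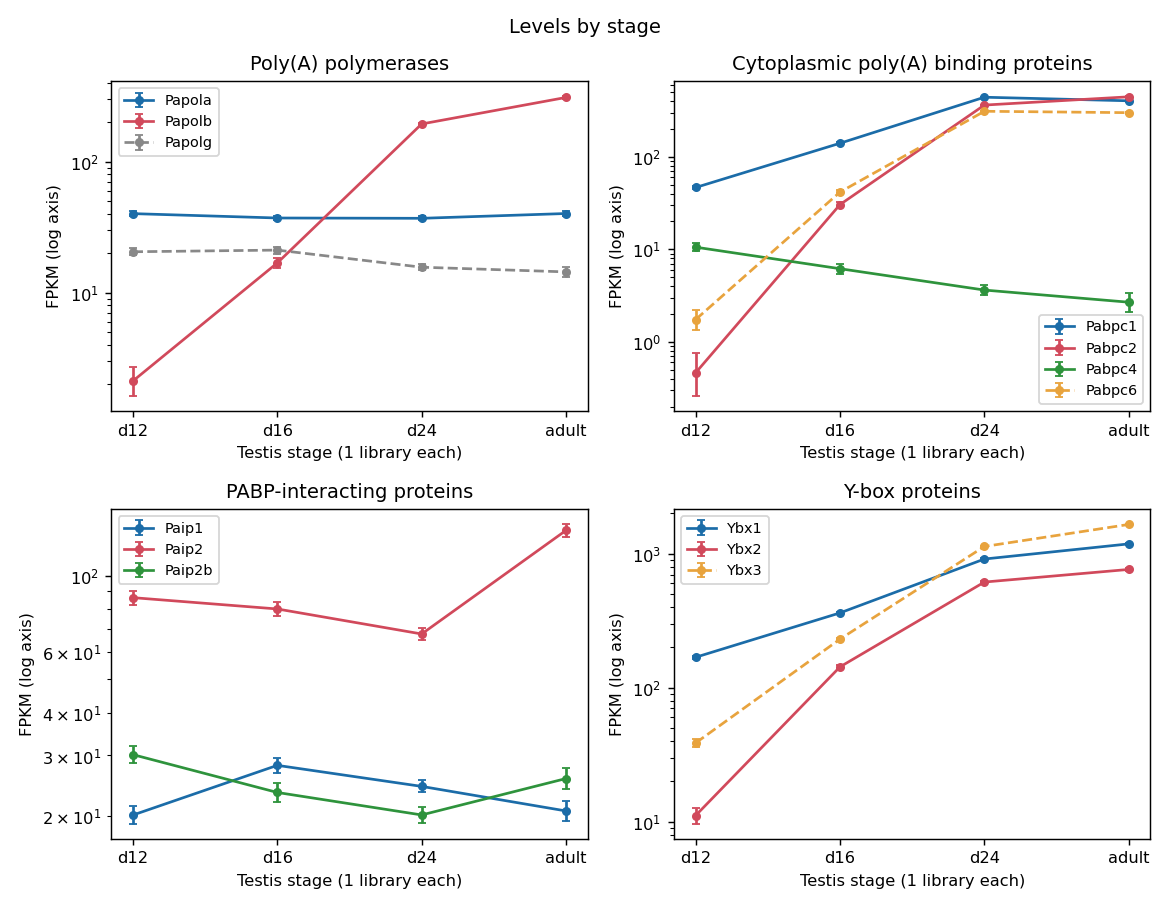
FPKM (log axis) of the genes of each family at d12, d16, d24 and adult stage, 1 library each; bars are 95% counting intervals, and dashed lines mark the paralogs Papolg, Pabpc6 and Ybx3. Papolb, Pabpc1, Pabpc2, Ybx1 and Ybx2 rise to d24, while Papola stays between 36.9 and 40.1 FPKM and Pabpc4 declines from 10.6 to 2.68 FPKM.

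Papolb has 1 exon and lies inside an intron of Radil, on the same strand. Radil was at 3.45, 11.0, 13.7 and 9.67 FPKM at the 4 stages, above Papolb at d12 and below it from d16 on. Whether unspliced Radil RNA added to the 62 fragments of Papolb at d12 was not tested. The 250 bases before the start of Papolb (GRCm38.p6, chr5:142530077-142530326, minus strand) are shown because this is the polymerase that moved. They hold none of the 4 motifs searched on both strands, so no base is in capitals. The motifs were the cAMP response element TGACGTCA, its short form TGACG that lies within it, the GC box (GGGCGG) and the TATA box (TATAAA).
Papolb upstream: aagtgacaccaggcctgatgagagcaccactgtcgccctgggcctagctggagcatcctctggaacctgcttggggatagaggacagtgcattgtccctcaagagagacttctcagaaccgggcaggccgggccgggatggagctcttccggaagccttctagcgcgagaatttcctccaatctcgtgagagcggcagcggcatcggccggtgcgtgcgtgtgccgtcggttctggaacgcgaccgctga

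For comparison, TGACGTCA was found in 1.79% of 32851 RefSeq promoter windows of 300 bases, TGACG in 20.8%, GGGCGG in 35.7% and TATAAA in 13.6%. Of the 10 genes, 7 have an entry among these windows, which run from 250 bases before a start to 50 after it. The window of Papola held TGACG 3 times and none of the other motifs, and those of Ybx1 and Paip2b held GGGCGG 2 and 3 times. The window of Pabpc4 held GGGCGG and TATAAA, and both windows of Paip1 held TGACG and GGGCGG. Of the 2 starts listed for Ybx2, the first held none of the motifs and the second held GGGCGG 4 times, the first pair overlapping. Papolb had 63.3% G and C in its window and the first start of Ybx2 had 78.0%, against a median of 52.7% over all windows. A match of letters is no evidence that a factor binds there.

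The cytoplasmic poly(A) binding proteins changed in make-up as well as in sum. Pabpc1, the form used in all tissues, was at 46.6 FPKM at d12, 140.2 at d16, 440.9 at d24, then 403.3 in the adult. It rose 3.01-fold from d12 to d16 (2.85 to 3.18) and 3.14-fold from d16 to d24 (3.05 to 3.24), and the adult level was 0.915 times that at d24 (0.894 to 0.936). Pabpc2, an intronless testis form, was at 0.463 FPKM at d12, where its 15 fragments gave an interval from 0.259 to 0.764. It was at 30.5 FPKM at d16, 362.6 at d24, then 445.4 in the adult.

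Pabpc2 therefore showed the largest change of the 10 genes from d12 to d16, 65.8-fold (39.7 to 118), and rose 11.9-fold from d16 to d24 (11.2 to 12.7). The adult level was 962-fold the level at d12 (583 to 1719), a wide interval that reflects the few fragments at d12. Pabpc6 followed a like course, with 1.74, 41.6, 310.8 and 300.1 FPKM. In contrast, Pabpc4, the inducible form, was at 10.6, 6.17, 3.63 and 2.68 FPKM and fell 3.94-fold from d12 to adult testis (3.07 to 5.16). Its decline was less than 2-fold at each single step. Gm5088, the pseudogene that shares most of its stretches, was at 4.93, 3.18, 1.72 and 1.46 FPKM, lower at each stage than at the one before it as Pabpc4 was. How many reads passed between the pair was not tested, and the level of either one is uncertain.

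Within each library, the level of Pabpc2 was 0.00994 times that of Pabpc1 at d12 (0.00555 to 0.0164), 0.217 times at d16, 0.822 times at d24 (0.808 to 0.837), then 1.1 times in the adult (1.07 to 1.14). By these values Pabpc1 was the most abundant of the family up to d24 and Pabpc2 in adult testis. The adult order is uncertain, since 32.0% of the stretches of Pabpc1 occurred elsewhere and 0% of those of Pabpc2. How many fragments of Pabpc1 were assigned to copies was not tested. Conversely, the ratio of Pabpc4 to Pabpc1 went from 0.227 at d12 to 0.0440 at d16, 0.00823 at d24, then 0.00665 in the adult. The intronless pair Pabpc2 and Pabpc6 made up 3.58% of the summed FPKM of the 7 cytoplasmic family genes at d12, 32.9% at d16, 60.2% at d24, then 64.7% in the adult. That sum was 61.5, 219.4, 1119 and 1153 FPKM. The 3 other genes of the family, Pabpc1l, Pabpc4l and Pabpc5, stayed below 2 FPKM in all 4 libraries.

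**Figure D2:**
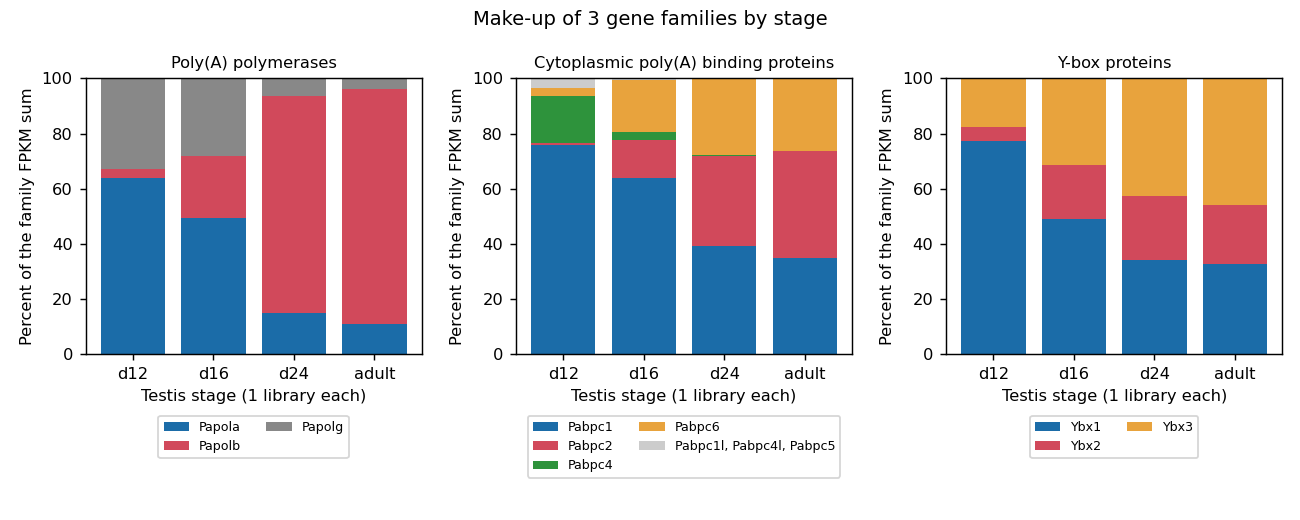
Percent of the summed FPKM that each gene contributes to its family, in 1 library a stage; the bars of each panel add to 100%. Papolb grows from 3.38% to 85.0% of the polymerases, Pabpc2 from 0.753% to 38.6% of the poly(A) binding proteins, and Ybx1 shrinks from 77.2% to 32.9% of the Y-box proteins.

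The partners of the poly(A) binding proteins moved little beside this. Paip1, which favours translation, was at 20.1, 28.1, 24.4 and 20.7 FPKM at d12, d16, d24 and in adult testis. Paip2, which draws the binding protein off the tail, was at 86.4, 80.1, 67.7 and 135.5 FPKM. Its adult level was 2.00 times that at d24 (1.89 to 2.13), just at the limit used for a call. The call was lost when each library was rescaled to the same FPKM sum, with a log2 change of 0.52, and when it was divided by its upper quartile, with 0.76. Paip2b was at 30.2, 23.4, 20.1 and 25.7 FPKM, and 0 of the 3 single steps reached 2-fold for Paip1 or Paip2b. From d12 to adult testis their log2 changes were 0.04 and −0.23, against −1.17 and −1.45 with equal FPKM sums.

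The ratio of binding proteins to these partners was highest at d24. Paip2 was at 1.85 times the level of Pabpc1 at d12 (1.73 to 1.98), 0.571 times at d16, 0.154 times at d24, then 0.336 times in the adult (0.320 to 0.353). The FPKM of Pabpc1, Pabpc2, Pabpc4 and Pabpc6 with the 3 low genes of the family, summed and divided by that of Paip2 and Paip2b, was 0.528 at d12, 2.12 at d16, 12.7 at d24, then 7.15 in the adult. Within the pair, Paip2b was at 0.349 times Paip2 at d12, 0.293 at d16, 0.298 at d24, then 0.190 in the adult. The d16 and d24 intervals of this ratio overlapped (0.270 to 0.317 and 0.279 to 0.318).

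**Figure D3:**
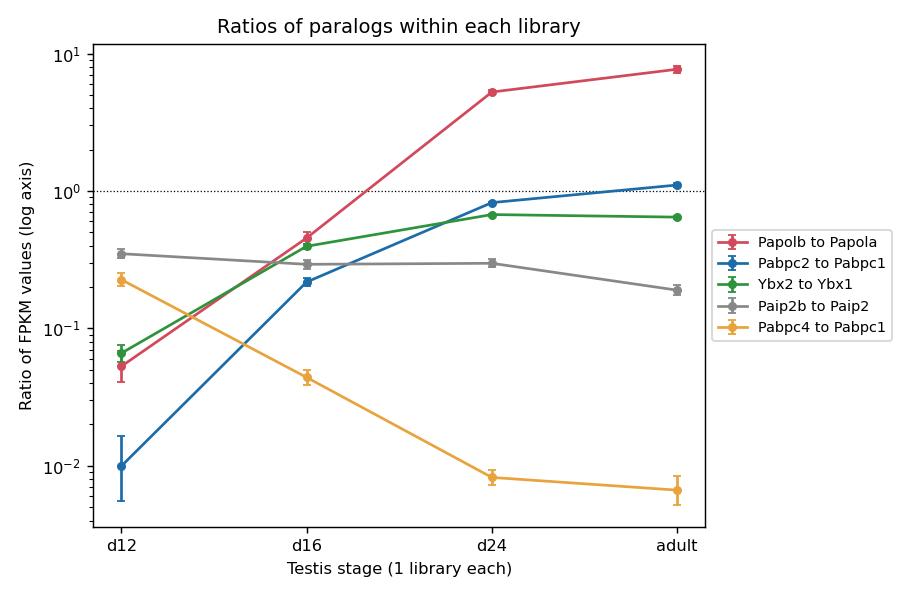
Ratio of the FPKM values of 2 paralogs within the same library (log axis) by stage, with 95% Clopper-Pearson counting intervals; the dotted line marks equal levels. Papolb to Papola crosses 1 between d16 and d24, Pabpc2 to Pabpc1 reaches 1.1 in adult testis, and Pabpc4 to Pabpc1 declines to 0.00665.

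Of the Y-box proteins, which bind messenger RNA through a cold shock domain, both members rose. Ybx1, the form used in all tissues, was at 168.9 FPKM at d12, 361.9 at d16, 913.3 at d24, then 1184 in the adult, the highest of the 10 genes at every stage. It rose 2.14-fold from d12 to d16 (2.07 to 2.22) and 2.52-fold from d16 to d24 (2.47 to 2.58). With the libraries rescaled to the same FPKM sum, these log2 changes were 0.98 and 0.72, both under the limit of 1, and with upper quartile scaling the first was 0.97. Ybx2, the germ cell form, was at 11.1 FPKM at d12, 143.2 at d16, 614.8 at d24, then 763.7 in the adult. Its rise was 12.9-fold from d12 to d16 (11.1 to 14.9) and 4.29-fold from d16 to d24 (4.12 to 4.48).

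Unlike Papolb, Ybx2 did not pass its paralog. Its level was 0.0659 times that of Ybx1 at d12, 0.396 times at d16, 0.673 times at d24 (0.662 to 0.685), then 0.645 times in the adult (0.630 to 0.660). Ybx3, a further Y-box protein, was at 38.7, 230.7, 1133 and 1655 FPKM, and it lay above Ybx1 at d24 and in adult testis. That order is uncertain too, since 32.5% of the stretches of Ybx1 occurred elsewhere and 0% of those of Ybx3. The Y-box share of Ybx1 was 77.2%, 49.2%, 34.3% and 32.9% over the stages, and that of Ybx2 5.09%, 19.5%, 23.1% and 21.2%. At d24 the 3 Y-box genes together reached 2661 FPKM, and in adult testis 3603 FPKM.

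The order of the 10 genes changed accordingly. At d12 it ran Ybx1, Paip2, Pabpc1, Papola, Paip2b, Paip1, Ybx2, Pabpc4, Papolb and Pabpc2, with overlapping intervals for Ybx2 and Pabpc4 alone among neighbours. At d16 Ybx2 came second, with an interval that overlapped that of Pabpc1, and Pabpc2 and Paip1 overlapped too. At d24 the order ran Ybx1, Ybx2, Pabpc1, Pabpc2, Papolb, Paip2, Papola, Paip1, Paip2b and Pabpc4. In adult testis Pabpc2 and Pabpc1 had changed places, as had Paip2b and Paip1, and no neighbouring intervals overlapped at either of these stages. The intervals do not cover fragments assigned to copies, which bears on the order of Pabpc2 and Pabpc1. The summed FPKM of the 10 genes was 0.147% of that of the whole library at d12, 0.282% at d16, 0.566% at d24, then 0.505% in the adult.

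The changes were then set against all 13901 genes whose 4 levels averaged 1 FPKM or more. Called means at least 2-fold on the scale log2(FPKM + 0.1), which understates the changes of low genes. From d12 to d16, 5 of the 10 genes rose (Papolb, Pabpc1, Pabpc2, Ybx1 and Ybx2), where 12.6% of all genes did, and 0 of 10 fell, where 3.67% of all genes did. From d16 to d24, the same 5 genes rose, against 27.5% of all genes, and 0 fell, against 8.45%. From d24 to adult testis, Paip2 alone rose, against 11.4% of all genes, and 0 fell, against 2.2%. The share for this last step is close to the 1 in 10 found among the members, and nothing is read from it. Between d12 and adult testis, 5 rose and 1, Pabpc4, fell, against 35.7% and 23.1% of all genes.

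The median log2 change of the 10 genes was 0.79 from d12 to d16, 0.66 from d16 to d24 and 0.30 from d24 to adult testis. Over all genes tested it was 0.00, 0.13 and −0.02. These medians depend on the scaling, because the FPKM sums of the libraries differ (283580 at d12, 307964 at d16, 472726 at d24, then 659202 in the adult). With equal sums, the median over all genes moved to −0.11, −0.48 and −0.49 for the 3 steps. The medians of the 10 genes above are at the deposited scaling and cannot be set against these. Under the scaling to equal sums, the 5 genes that had risen from d16 to d24 still had positive log2 changes, between 0.72 for Ybx1 and 2.95 for Pabpc2. Those of the other 5 lay between −1.37 for Pabpc4 and −0.63 for Papola under that scaling. The log2 changes of Papola, Pabpc2, Ybx1, Ybx2 and Paip2b from d24 to adult testis turned from positive to negative under it, and no direction is given for these genes at that step.

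**Figure D4:**
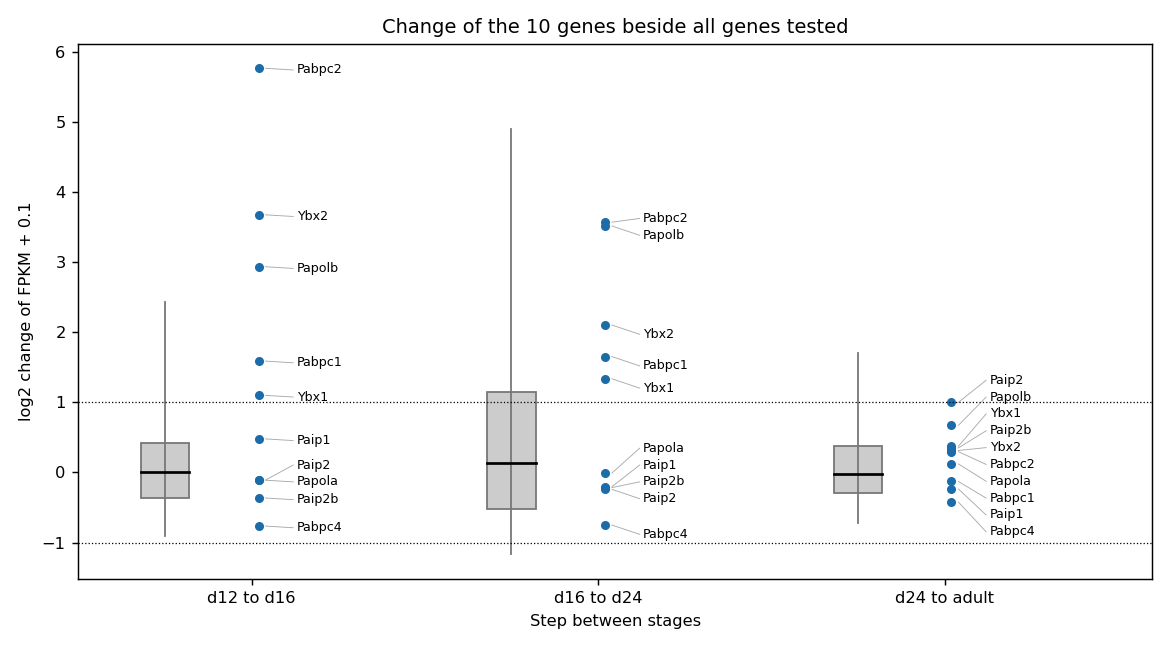
log2 change of FPKM + 0.1 of each of the 10 genes (points) at the 3 steps between stages, beside all 13901 genes tested (box, from the lower to the upper quartile with the median; line, all but the lowest and the highest 5% of genes); dotted lines mark 2-fold. The 5 genes above the upper dotted line are the same at the first and the second step, and Paip2 alone reaches it from d24 to adult testis.

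The steps coincided with large shifts in the levels of cell type markers, taken as 7 lists of 6 genes. The summed FPKM of the pachytene spermatocyte list was 50.6 at d12, 831 at d16, 3520 at d24, then 4013 in the adult, and 6 of its 6 genes rose at each of the first 2 steps. The round spermatid list summed to 3.81, 3.95, 359 and 1157 FPKM, with Sun5 at 0 at d12 and 3 of 6 genes at 0 at d16. The elongating spermatid list summed to 13.5, 4.76, 2390 and 26956 FPKM. The rise of Papolb, Pabpc2 and Ybx2 from d12 to d16 thus came at a step at which the pachytene list rose and 0 of the 6 round spermatid genes did. Early meiotic genes summed to 806, 1499, 954 and 907 FPKM, with 2 of 6 higher at the first step and 1 of 6 at the second.

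The somatic and spermatogonial lists took other courses. The spermatogonial list summed to 289, 169, 86.8 and 62.1 FPKM, and the Sertoli cell list to 891, 756, 530 and 544. Pabpc4 was the only one of the 10 genes whose deposited level declined at each step, as the spermatogonial sum did, while with equal FPKM sums the levels of Papola and Paip2b declined at each step too. At the last step, where Paip2 stood at the limit of 2-fold, the Leydig cell list went from 153 to 581 FPKM, with 4 of 6 genes higher. It was at 132 and 82.4 FPKM at d12 and d16. The round spermatid list rose at that last step too, from 359 to 1157 FPKM, with 5 of 6 genes higher. So did the elongating spermatid list, from 2390 to 26956 FPKM, with 6 of 6 genes higher. Lists of all 7 cell types had genes above 0 in every library. Low sums, as those of both spermatid lists at d12 and d16, do not show that cells of the type were present. The part of these lists in the changes above was not tested.

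The genes whose course over the 4 libraries lay closest were sought for the 3 germ cell forms, with each gene centred on its own mean. For Papolb these were Ttc39d, Nlrp14 and Ssmem1, with root mean square differences of 0.05, 0.08 and 0.10 on the log2 scale. For Pabpc2 they were Slc9c1, Atp8b3 and Gm13308, with 0.04, 0.10 and 0.12. At d12 Slc9c1 was at 0.0206 FPKM and Gm13308 was listed at 0. Both values lie below the 0.1 FPKM added before taking log2, which lessens differences at d12. For Ybx2 the closest genes were Rfx4, 4921506M07Rik and Nkapl, with 0.06, 0.07 and 0.08. Papolb and Ybx2 lay 0.68 apart on this measure, Papolb and Pabpc2 1.195, and Pabpc2 and Ybx2 1.45. Within 0.2 of each course lay 16 genes for Papolb, 8 for Pabpc2 and 32 for Ybx2, over 4 points that share their libraries.

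Genes that act with the 10 in the life of the poly(A) tail were mostly below 2-fold at the step from d16 to d24. Of 25 tested genes of 3′ end processing and polyadenylation, 4 rose and 0 fell, with a median log2 change of 0.41 against 0.13 over all genes tested, of which 27.5% rose and 8.45% fell. Cstf1, a subunit of the cleavage stimulation factor, rose from 14.2 to 49.3 FPKM, and Cpsf4l from 0.187 to 1.16 FPKM. Cpsf6, a subunit of the cleavage factor that sets the choice of poly(A) site, was at 22.9 and 14.3 FPKM, and Papd4, a cytoplasmic poly(A) polymerase, at 16.8 and 10.5 FPKM, both under the limit. The largest log2 change in the list, 2.13 for Cpsf4l, was below the 3.51 of Papolb at the same step.

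Of 21 deadenylation genes, which shorten the tail, 4 rose and 2 fell, with a median of 0.08. Btg4, which recruits the deadenylase to messages, rose from 2.81 to 11.3 FPKM and Btg1 from 4.78 to 15.3 FPKM. Btg2 fell from 5.79 to 1.71 FPKM, and Cnot6l, a catalytic subunit of the deadenylase, from 11.9 to 5.63 FPKM. Of 16 cap binding and initiation genes, 2 rose and 0 fell, with a median of 0.02. Eif4g3, a scaffold that poly(A) binding proteins hold on to, rose from 33.1 to 106.7 FPKM and Eif4e2, a cap binding protein, from 59.8 to 126.5 FPKM. The values of Gspt2, a release factor, were 9.79 and 5.92 FPKM, and those of the helicase Eif4a1 190.8 and 121.0 FPKM.

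Of 35 tested genes of germ cell messenger ribonucleoprotein and storage, 10 rose and 1 fell, with a median of 0.08. Ybx3 rose from 230.7 to 1133 FPKM and Ddx25, a helicase of germ cell granules, from 74.6 to 316.8 FPKM. Dazl, an RNA binding protein of germ cells, fell from 173.5 to 85.7 FPKM, and Fmr1 was at 38.9 and 20.05 FPKM, under the limit. Of 10 messages known for delayed translation in spermatids, 10 rose at this step, with a median of 8.94. Tnp2 went from 0.145 to 562.5 FPKM and Smcp from 0.0900 to 159.7 FPKM. Both d16 values lie below the limit of detection, 3 fragments at 1 kb of transcript. The sizes of these rises and of the median are therefore uncertain. The 6 genes of the elongating spermatid list are among the 10 messages. At the step before, 1 of these 10 rose and 5 fell, and falls to levels near the limit of detection are uncertain. Papolb, Pabpc1, Pabpc2, Ybx1 and Ybx2 rose at that step, so that the RNA of these 5 genes was measured above its d12 level at d16. The summed FPKM of the delayed messages was 15.6 at d12, 9.93 at d16, 2960 at d24, then 29771 in the adult.

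Over the 108 genes tested in the 6 pathway lists, 31 rose and 3 fell from d16 to d24. The 31 are 28.7%, near the 27.5% of all genes that rose, but 10 of the 31 were the delayed messages. In the other lists 4 of 25 genes of 3′ end processing rose, 4 of 21 deadenylation genes and 2 of 16 cap binding genes. The 10 of 35 storage genes are 28.6%. With equal FPKM sums, 21 of the 108 rose and 20 fell. From d12 to d16, 12 of the 108 rose and 7 fell (11.1% and 6.48%), against 12.6% and 3.67% of all genes. At that step 0 rose and 1, Cpsf4l, fell of the 25 genes of 3′ end processing, to a d16 value below the limit of detection. In the other lists 1 rose and 0 fell of the 21 deadenylation genes, 0 rose and 1 fell of the 16 cap binding genes, and 9 rose and 0 fell of the 35 storage genes. From d24 to adult testis these counts were 4 and 1, 0 and 0, 1 and 0, and 2 and 0. Over all 108 genes they were 17 and 1 (15.7% and 0.926%), against 11.4% and 2.2% of all genes, and 10 of the 17 were the delayed messages. Pabpc6, the 1 gene tested in the list of other poly(A) binding proteins, rose at the first 2 steps and not at the third.

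In the genome the 10 genes are scattered (GRCm38.p6, RefSeq). Papola lies at chr12:105784677-105838949, Papolb at chr5:142527740-142530076, Pabpc1 at chr15:36595658-36609581, Pabpc4 at chr4:123282303-123298925 and Ybx1, on the same chromosome, at chr4:119277327-119296265. Paip1 lies at chr13:119428331-119460323, Paip2b at chr6:83806058-83831741 and Ybx2 at chr11:69935805-69941604. Pabpc2 and Paip2 both lie on chromosome 18, at 39773497 to 39776082 and at 35598610 to 35617186. Papolb and Pabpc2 have 1 exon each, against 15 for Pabpc1 and 21 or 22 for Papola. Paip2 overlaps exons of Slc23a1 on the opposite strand, a gene that stayed at or below 0.823 FPKM in the 4 libraries, and the libraries were strand-specific.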

How the data were processed

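RNA-seq of mouse testis at d12, d16, d24 and adult stage was analysed, with 1 library a stage, grouped by the age in the labels. The authors prepared strand-specific libraries (ScriptSeq v2), used TopHat2 2.1.0 on Bowtie 1.1.2 with RefSeq genes for mapping (GRCm38/mm10, 1 alignment kept for a pair), and deposited FPKM values computed by Cuffdiff (Cufflinks 2.2.1, corrected for multi-reads and bias but not for effective length), as their methods and processing notes give it. The scaling between libraries is not given in the sources used here. These are no counts, so no count test was run.

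The value of 1 fragment was found in each library as the step of which the FPKM values are whole multiples. At 1 kb of transcript it was 0.0799 FPKM at d12, 0.0800 at d16, 0.0455 at d24, then 0.112 in the adult. Between 91.8% and 92.5% of low values (up to 20 fragments) were whole within 0.05. These steps gave 4580219, 4822348, 11875536 and 6044213 fragments on the 14603 genes with 1 curated transcript used. At 1 kb, 3 fragments (the limit of detection) are 0.240, 0.240, 0.137 and 0.336 FPKM. Fragments are whole for Papolb, Pabpc1, Pabpc2 and Ybx1 and estimated for the other 6 genes, whose FPKM values gave no whole fragments with the annotated lengths.

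Changes were taken as log2(FPKM + 0.1) and called at 2-fold among genes averaging 1 FPKM or more. Named are the 10 genes, their paralogs, the 2 genes of each pathway list of at least 10 genes with the largest rise and fall from d16 to d24, and the 3 genes closest to Papolb, Pabpc2 and Ybx2. Radil, Luc7l, Slc23a1 and the pseudogenes were named for their position or shared sequence, and Sun5 for its value of 0, all after values were seen. The 10 genes and all lists were chosen with earlier results of these data known. Coding sequences were compared in place of proteins, and 1 stretch is not reported here. Stretches of 50 bases were matched exactly to both strands of the genome. Alternatives were other scalings, pseudocounts, thresholds and no filter. The unit and the calls were tested on simulated data. python 3.11.15, numpy 2.4.6, pandas 2.3.3, scipy 1.17.1 and biopython 1.88 were used.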

Additional observations from a re-analysis of the deposited data

How the results depend on the processing

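Over 262 alternatives to 78 results, 116 moved and 0 values with a call changed sign. For the changes of the 10 genes, 90 of 160 alternatives lay outside the counting interval, so the size of a change depends on the scaling and pseudocount. Changes without a call could change sign, as that of Paip2 from d12 to adult testis did (log2 changes of 0.65, and −0.57 with equal FPKM sums). The 17 called changes of the 10 genes kept their direction in 68 of 68 alternatives and stayed at 2-fold or more in 62. Counts of the 10 genes moved in 13 of 48 alternatives. At 4-fold, 3 genes were higher from d12 to d16, 3 from d16 to d24 and 0 from d24 to adult testis, and 0 were lower from d12 to adult testis. At 1.5-fold, 1 was lower from d12 to d16, 1 was lower from d16 to d24 and 2 were higher from d24 to adult testis. From d24 to adult testis 0 were higher with equal FPKM sums, with upper quartile scaling or with a pseudocount of 1 FPKM, since Paip2 stood at the limit. From d16 to d24 1 was lower with equal sums and 1 with upper quartile scaling, in both cases Pabpc4 (log2 changes of −1.37 and −1.03). With equal sums, 4 were lower from d12 to adult testis: Pabpc4, and Papola, Paip1 and Paip2b (log2 changes of −1.21, −1.17 and −1.45).

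Without the filter on low values, 1411 genes in all were lower from d12 to d16 and 1931 from d16 to d24, and from d24 to adult testis 2672 were higher and 926 lower, because more genes of low level are then tested. With 1 FPKM added to both values, the ratio of Papolb to Papola at d12 was 0.0760 and that of Pabpc2 to Pabpc1 at d12 0.0307, and that of Pabpc4 to Pabpc1 was 0.0508 at d16, 0.0105 at d24, then 0.00911 in the adult. Of the pathway genes from d16 to d24, 15 were higher and 0 lower at 4-fold, 20 were lower with equal sums and 5 with centring on the median. Depth limits chiefly the d12 levels of Pabpc2 and Papolb, which rest on 15 and 62 fragments. No paired analysis was possible because each stage has 1 library.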
